A study of Rattus norvegicus with 16 samples.

Results

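Schwann cells purified from the uncrushed sciatic nerve of the rat were compared with uncrushed whole sciatic nerve, in 4 of the 16 libraries of the study, with 2 libraries in each group. The libraries were taken by their labels, as replicates 1 and 2 of Schwann Cell Uncrushed and of Whole Nerve Uncrushed, and no measured value entered the choice. All samples were labelled postnatal day 18, and the 4 libraries came from nerves with neither a crush nor, as far as the methods state, a sham operation. The other 12 libraries hold the same kinds of sample 3, 5 and 7 days after crush. They are used to ask whether the difference seen before injury was of another size after it. The methods place the crush itself at postnatal day 18. Nerves taken 3, 5 and 7 days later would then come from rats older than that label, and age and injury cannot be told apart here. Each sample was a pool of at least 10 nerves, so a replicate stands for a pool and not for an animal. Purified cells were released with collagenase and dispase, passed over dishes that hold back cells with CD45 and Thy1, and collected on a dish against O4, a sulfated glycolipid antigen of the Schwann cell lineage. RNA of whole nerve came from tissue that was not dissociated, with a different extraction kit. Dissociation, selection and kit all followed the group, so that their contributions to any difference below cannot be told apart in these libraries. The study also describes dissociated nerve that was not immunopanned, which was not analysed here.

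A peripheral nerve holds myelinating Schwann cells, which wrap large axons and make the myelin proteins, and non-myelinating (Remak) Schwann cells, which ensheathe bundles of small axons. It also holds endoneurial and epineurial fibroblasts, vessels with endothelial cells and pericytes, perineurial cells, resident macrophages, mast cells and, around the nerve, fat. Axons bring little messenger RNA, as the neuronal cell bodies lie elsewhere. Immediate-early genes are genes, many for transcription factors of the AP-1 and Egr families, whose transcripts appear within minutes of a stimulus without new protein synthesis. Taking a tissue apart at warm temperature with enzymes is widely known to induce them, together with heat shock and cytokine genes, which is why they are followed here beside the markers of cell types.

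Expected counts, which are estimates by RSEM of the fragments from each gene, summed to between 10555067 and 15635624 in the 4 libraries and to at most 27562637 in the other 12. The mitochondrial genome took 2.90% and 3.65% of the counts in the Schwann cell libraries and 15.6% and 14.2% in whole nerve. Markers of skeletal muscle and red blood cells stood apart between the whole nerve libraries. Their summed level was 47.0 FPKM for 14 muscle genes in replicate 1 and 941 in replicate 2, and for 8 red blood cell genes 479 and 1649 FPKM. FPKM is the number of fragments scaled to transcript length and library depth, as deposited, and is the unit of every level below.

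A gene is called here when edgeR's quasi-likelihood test, fitted to all 16 libraries, gave a Benjamini-Hochberg adjusted p below 0.05 over the 16829 genes tested. Of these, 64.4% were called, 4905 (29.1%) as higher in Schwann cells and 5939 (35.3%) as lower, and the median log2 fold change of all genes tested was −0.10. The counts of called members given for each gene list are to be read against these shares. At a fitted difference of 16-fold or more, 1423 called genes were lower in Schwann cells and 316 were higher. Many of these folds are fitted over few counts, since 940 of the 1423 had no more than 3 counts in either Schwann cell library and 181 of the 316 no more than 3 in either whole nerve library. Of the called genes, 474 had no count in either Schwann cell library and 85 had none in either whole nerve library. Log2 fold changes, or log2 differences, are Schwann cell minus whole nerve throughout and are given with their standard error (SE), on edgeR's scale, and the ratio of the FPKM means lay above them by a median of 0.31 in 6468 genes with a mean of at least 10 FPKM in a group. In a bulk sample, fewer cells of a type and less RNA per cell cannot be told apart.

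**Figure D1:**
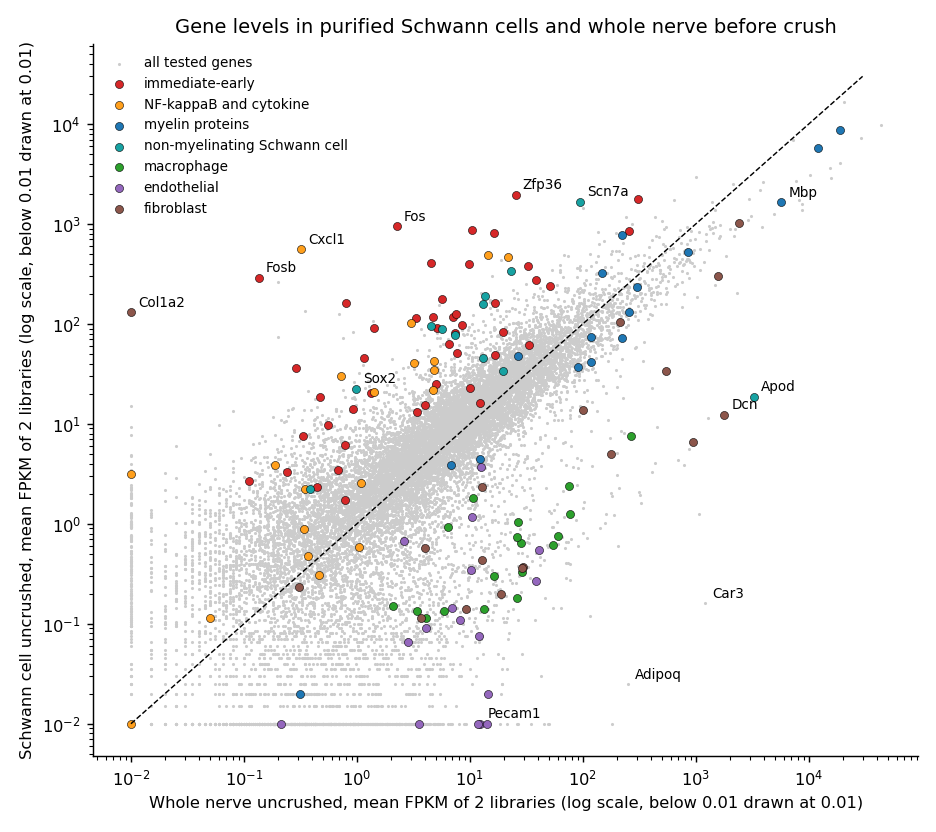
Mean FPKM of each tested gene in uncrushed whole nerve (horizontal, log scale) against uncrushed Schwann cells (vertical, log scale), with 7 gene lists in colour and the line of equal levels dashed. Immediate-early genes such as Fos and Zfp36 lie far above the line, endothelial, macrophage and most fibroblast genes far below it, and Mbp somewhat below it among the most abundant genes.

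Most markers of other cell types were lower. Over 10 lists of marker genes for fibroblasts, endothelial cells, pericytes and smooth muscle, macrophages, lymphocytes, mast cells, neutrophils, adipocytes, skeletal muscle and red blood cells, 102 of 113 genes tested were called lower in Schwann cells, against 35.3% of all genes, 2 were called higher and 9 were not called. The median log2 fold change over the 113 genes was −5.76, or −5.39 where the fitted value of genes with no more than 3 counts in each Schwann cell library is replaced by a bound or a count ratio. Of the 113 genes, 18 had no count in either Schwann cell library. Perineurial and satellite glia lists were split. Of 4 perineurial genes tested 3 were lower and Itgb4, an integrin subunit also made by Schwann cells, was higher, at 98.8 and 95.3 FPKM in Schwann cells and 32.2 and 43.2 in whole nerve, a log2 difference of 1.06 (SE 0.128, edgeR adjusted p = 5.41e-06). Of 4 satellite glia genes 2 were lower, 1 was not called and Kcnj10, a potassium channel, was higher, by a log2 difference of 2.46 (SE 0.160, edgeR adjusted p = 9.67e-09).

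The endothelial list was lower throughout, 17 of 17 genes. Pecam1, the adhesion molecule of endothelial junctions, had 11.7 and 13.0 FPKM in the whole nerve libraries and was listed at 0 in both Schwann cell libraries, at least 132-fold lower against a floor of 3 counts per library. Cldn5, a tight junction protein of vessels, was listed at 0 in Schwann cells against 13.6 and 14.6 FPKM, at least 95.8-fold lower. The groups do not overlap for either gene. Tek and Vwf were the endothelial genes least depleted. Tek, the angiopoietin receptor, had 4.23 and 3.19 FPKM in Schwann cells and 14.1 and 11.1 in whole nerve, a log2 difference of −2.14 (SE 0.162, edgeR adjusted p = 4.57e-08).

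All 18 macrophage genes were lower, with summed levels of 27.3 and 11.2 FPKM in the Schwann cell libraries and 746 and 716 in whole nerve. Ptprc, the gene of CD45 and the target of the first depletion dish, had 0.160 and 0.0700 FPKM in Schwann cells against 4.16 and 3.97, a log2 difference of −5.43 (SE 0.594, edgeR adjusted p = 1.93e-06). C1qc, a chain of complement C1q and the most depleted of the list, was read 4 times in the Schwann cell libraries together and 600 times in whole nerve, a ratio of 189 with a 95% exact interval of 73.6 to 697 for counting error. Lyz2, lysozyme, differed between the purified libraries, at 11.9 and 3.24 FPKM against 265 and 266 in whole nerve. Genes of MHC class II were called lower in 7 of 10 cases, with Cd74, the invariant chain, at 0.920 and 0.310 FPKM in Schwann cells and 51.8 and 57.8 in whole nerve.

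Mast cell and fat genes had the lowest medians of fitted values, −7.56 and −9.93. With genes of few counts at their bound or count ratio the medians were −5.25 and −8.86, and skeletal muscle, endothelial, proteoglycan and macrophage genes, at −7.03, −6.39, −6.10 and −5.60, then lay below mast cells. All 9 mast cell genes were called lower, with a summed level of 304 and 290 FPKM in whole nerve and 2.84 and 2.43 in Schwann cells. The tryptase gene Tpsb2 had 10.7 and 13.8 FPKM in whole nerve and no count in Schwann cells, at least 60.5-fold lower. All 9 adipocyte genes were lower, with a summed level of 2030.0 and 1067 FPKM in whole nerve against 19.4 and 17.2. Among them Pck1, an enzyme of glyceroneogenesis, was at least 465-fold lower. Car3, carbonic anhydrase of fat and muscle, had 1618 and 802 FPKM in whole nerve and 0.320 and 0 in Schwann cells, a log2 difference of −12.95 (SE 0.597, edgeR adjusted p = 3.82e-10). Fabp4, a fatty acid carrier of adipocytes and endothelium, had 1413 and 735 FPKM in whole nerve against 2.30 and 0.210 in Schwann cells.

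For muscle and blood the number of calls depended on whole nerve replicate 2. Of 14 muscle genes 13 were called lower, and without whole nerve replicate 2 the number was 7. Myh4, the heavy chain of fast muscle fibres, had 2.44 and 56.0 FPKM in the whole nerve libraries and 0.100 and 0 in Schwann cells, a log2 difference of −9.42 (SE 2.01, edgeR adjusted p = 9.00e-04). All 7 red blood cell genes tested were lower, 4 of them without whole nerve replicate 2. Hbb, a globin chain, had 204 and 674 FPKM in whole nerve and 2.16 and 6.03 in Schwann cells. Lymphocyte and neutrophil genes were close to absent from whole nerve, with summed levels of 2.63 and 2.62 FPKM for 12 lymphocyte genes and 6.89 and 3.65 for 8 neutrophil genes. Of the 4 genes tested in each list, 1 and 2 were called lower.

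Fibroblast genes fell into strongly and weakly depleted members. Of 18, 16 were lower, 1 was higher and 1 was not called. Dcn, the proteoglycan decorin, had 16.9 and 7.92 FPKM in Schwann cells and 1703 and 1859.6 in whole nerve, a log2 difference of −7.48 (SE 0.440, edgeR adjusted p = 3.77e-09). Pdgfra, the receptor that marks fibroblasts of the nerve, had 0.480 and 0.260 FPKM against 28.4 and 30.8, and Thy1, the target of the second depletion dish, 0.190 and 0.0400 against 3.82 and 3.64. The groups are more than 10 times apart for these genes. Col1a1 and Col3a1, chains of the fibrillar collagens, were still abundant in the purified cells. Col3a1 had 1024 and 1015 FPKM in Schwann cells against 2369 and 2432 in whole nerve, a log2 difference of −1.55 (SE 0.213, edgeR adjusted p = 1.92e-05). Col1a1 had 301 and 297 FPKM against 1355 and 1763.

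Col1a2, whose product pairs with that of Col1a1 in type I collagen, was the fibroblast gene called higher, and its libraries did not agree. It had 249 and 12.7 FPKM in the Schwann cell libraries and 0.0200 and 0 in whole nerve, that is 15627 counts against 2, a ratio of 6190.2 with a 95% exact interval of 1713 to 51119. With 2 counts of Col1a2 in whole nerve beside the level of Col1a1 there, this gene was not read further.

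Small leucine-rich proteoglycans, which decorate collagen fibrils, were lower in 10 of 10 genes tested, with summed levels of 62.4 and 48.7 FPKM in Schwann cells and 3504 and 3948 in whole nerve. The gene of asporin, Aspn, had 0.03 and 0.210 FPKM in Schwann cells and 129 and 104 in whole nerve, a log2 difference of −9.30 (SE 0.510, edgeR adjusted p = 1.93e-09). Other strongly depleted genes of connective tissue were Igfbp6, which binds insulin-like growth factors, C7, a complement component, Islr and Vit, and Mgp, the inhibitor of calcification matrix Gla protein. Igfbp6 had 0.730 and 0.470 FPKM in Schwann cells and 184 and 227 in whole nerve, and Mgp 4.26 and 3.53 against 641 and 939. The log2 fold changes of these 5 genes lay between −8.69 and −7.96.

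Of 40 collagen genes tested, 16 were called higher and 19 lower, where 29.1% and 35.3% of all genes were, and with an offset for transcript length, an alternative added after the data were seen, 12 were higher and 21 lower. Among those lower were Col1a1, Col6a1 and Col6a2. Col28a1, whose product lies around non-myelinating Schwann cells and at nodes, was higher, with 78.4 and 72.2 FPKM in Schwann cells and 14.1 and 16.7 in whole nerve, a log2 fold change of 1.98. Of the 9 laminin chains tested, 4 were called higher, 3 lower and 2 were not called, not far from the shares of all genes. Their median was −0.07, and −0.77 with the length offset, their median length being 6200 bases. Lama2, Lamb1 and Lamc1, the chains of the laminin that surrounds Schwann cells, were all higher, as was Lama4. Lama2 had 352 and 307 FPKM in Schwann cells and 55.3 and 71.1 in whole nerve, a log2 difference of 2.07 (SE 0.119, edgeR adjusted p = 3.00e-09). Lama3 was among the laminin chains called lower, at no more than 0.610 FPKM in any of the 4 libraries.

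Genes of pericytes and smooth muscle were lower in 10 of 13 cases. Acta2, smooth muscle actin, had 0.770 and 0.790 FPKM in Schwann cells and 32.6 and 34.6 in whole nerve, a log2 difference of −5.73 (SE 0.394, edgeR adjusted p = 1.69e-08). Pdgfrb, the platelet-derived growth factor receptor of mural cells, was called higher, with 33.7 and 29.1 FPKM in Schwann cells and 8.58 and 10.5 in whole nerve. Its log2 fold change was 1.41 (SE 0.126, edgeR adjusted p = 2.39e-07). Tagln, transgelin, was not called, with 14.1 and 16.7 FPKM in Schwann cells and 17.3 and 13.8 in whole nerve.

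**Figure D2:**
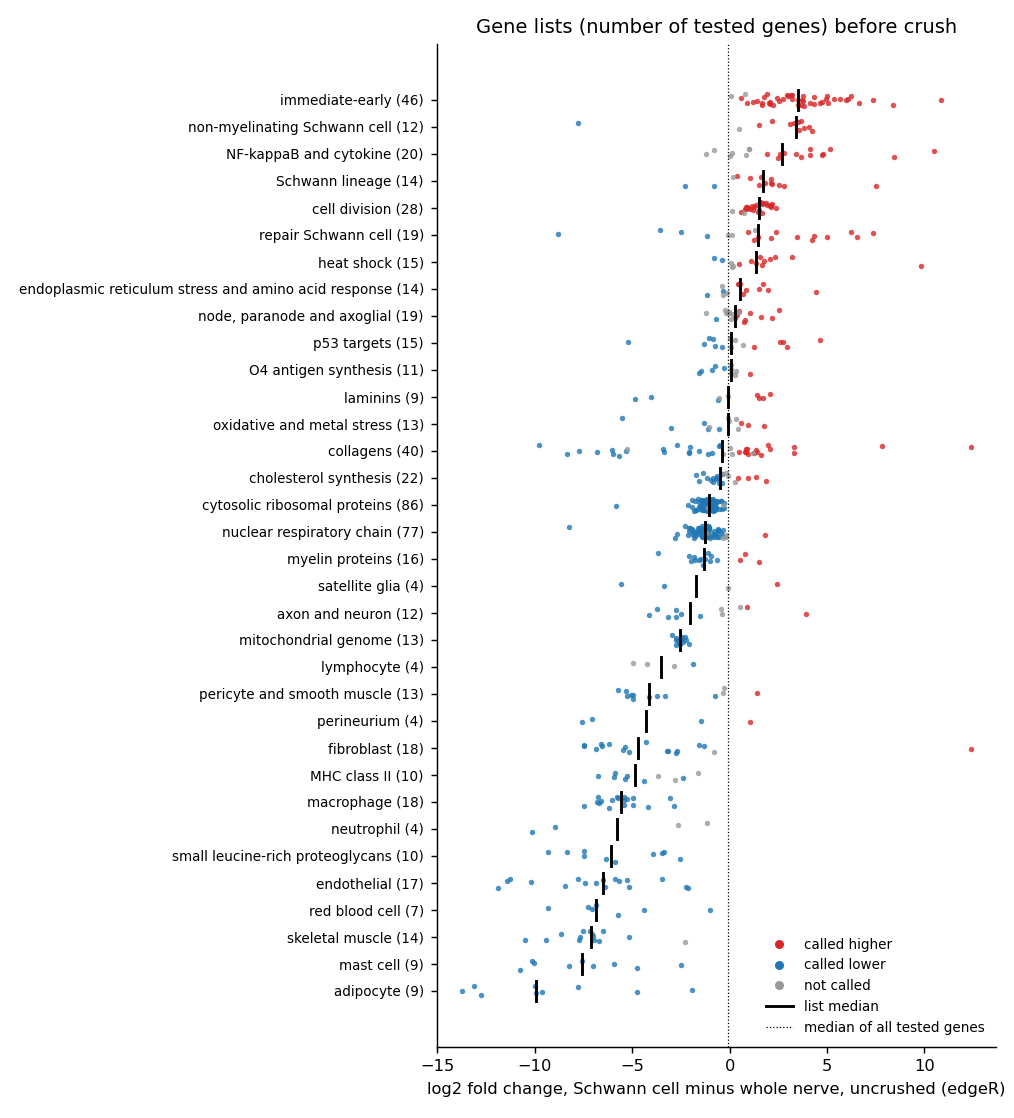
Log2 fold change before crush, Schwann cell minus whole nerve (horizontal) for every tested gene of 34 lists, ordered by their median (black bar), with genes called higher in red, lower in blue and not called in grey. Immediate-early and non-myelinating Schwann cell genes lead at medians of 3.51 and 3.42, and mast cell and adipocyte genes stand last at −7.56 and −9.93 by fitted values (−5.25 and −8.86 with genes of few counts at their bound), while the dotted line marks the median of all genes at −0.10.

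Within the Schwann cell lineage, the difference depended on the class of gene. Of 14 genes of the lineage as a whole 11 were called higher, against 29.1% of all genes, with a median log2 fold change of 1.71. Tfap2a, a transcription factor of the precursor stage, was low, at 0.5 and 0.430 FPKM in Schwann cells and without a count in whole nerve, at least 4.801-fold higher. Pou3f1, the promyelinating factor Oct6, had 23.3 and 21.6 FPKM in Schwann cells and 2.02 and 3.32 in whole nerve, a log2 fold change of 2.80. Erbb3, the neuregulin receptor of the lineage, had 186 and 165 FPKM against 28.9 and 34.4. S100b and the small heat shock protein gene Cryab were the lineage genes called lower. S100b, a calcium-binding protein widely used as a Schwann cell marker, had 533 and 430 FPKM in Schwann cells and 1971.5 and 1769 in whole nerve, a log2 difference of −2.27 (SE 0.126, edgeR adjusted p = 2.18e-09). Cryab had 918 and 971 FPKM in Schwann cells and 1300.1 and 1317 in whole nerve, a log2 difference of −0.78, and with the length offset its call was lost, at −0.16.

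Genes of non-myelinating Schwann cells were higher in 10 of 12 cases, with a median log2 fold change of 3.42. Scn7a, the sodium channel subunit Nax, was among the most abundant, with 1673 and 1667 FPKM in Schwann cells and 77.9 and 110 in whole nerve, a log2 difference of 3.82 (SE 0.235, edgeR adjusted p = 5.61e-09). Sox2, a transcription factor of immature Schwann cells, had 25.9 and 18.9 FPKM against 0.780 and 1.20, and the adhesion molecule L1cam 92.7 and 84.0 against 4.23 and 7.15. Each of these genes was more than 10 times as high in either Schwann cell library as in either whole nerve library. Apod, the lipid carrier apolipoprotein D, went the opposite way within the list. It had 2753 and 3823 FPKM in whole nerve, where it was among the 10 most abundant nuclear genes other than ribosomal RNA, and 18.2 and 19.3 in Schwann cells, a log2 difference of −7.76 (SE 0.282, edgeR adjusted p = 5.26e-11).

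Myelin protein genes were lower in 13 of 16 cases, with a median log2 fold change of −1.31. Pmp22, the tetraspan protein of compact myelin, had 8584 and 8721 FPKM in Schwann cells and 16728 and 21431 in whole nerve, a log2 difference of −1.45 (SE 0.143, edgeR adjusted p = 6.58e-07). It was among the 10 most abundant nuclear genes of the purified cells. Cnp and Mag were among those called higher. Cnp, a phosphodiesterase of myelinating cells, had 315 and 326 FPKM in Schwann cells and 137 and 157 in whole nerve, a log2 difference of 0.82 (SE 0.115, edgeR adjusted p = 2.33e-05). Mag, the adhesion protein on the inner face of myelin, was 0.52 higher on the log2 scale and lost its call without Schwann cell replicate 2 and without whole nerve replicate 1.

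Pmp2, the fatty acid binding protein of peripheral myelin, and Cntf, a neurotrophic factor stored by myelinating Schwann cells, were also lower. Pmp2 had 226 and 179 FPKM in Schwann cells and 2296 and 2310.2 in whole nerve, a log2 difference of −3.82 (SE 0.153, edgeR adjusted p = 1.10e-10). Cntf had 33.6 and 26.6 FPKM against 206 and 224, a log2 difference of −3.15 (SE 0.123, edgeR adjusted p = 8.48e-11). Mobp, a protein of central myelin, was read 2 times in Schwann cells and 21 times in whole nerve.

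The lipid genes behind myelin and the O4 epitope were mixed. Of 22 genes of cholesterol synthesis and its control 14 were lower and 4 higher, with a median of −0.48. Tm7sf2, a sterol reductase, was the lowest, at −1.74. Of 11 listed genes of sulfatide and related lipids, not all of them for synthesis, 5 were lower and 1 higher, against 35.3% and 29.1% of all genes. The gene called higher was Cerk, a ceramide kinase, at a log2 fold change of 1.07. Arsa and Galc, of lipid breakdown, were not called. With the length offset 4 were lower and 1 higher. Ugt8, the galactosyltransferase that makes galactocerebroside, had 415 and 407 FPKM in Schwann cells and 905 and 951 in whole nerve, a log2 fold change of −1.48. Gal3st1, the sulfotransferase of the last step, was not called, at 2.72 and 3.40 FPKM against 3.39 and 3.91. Scd2, a fatty acid desaturase, had 1171 and 1259 FPKM in Schwann cells and 3116 and 3014 in whole nerve, a log2 fold change of −1.64.

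Genes of the node of Ranvier and of contact with the axon were higher in 9 of 19 cases and lower in 1, against 29.1% and 35.3% of all genes, and with the length offset 8 were higher and 4 lower. Cadm1, an adhesion molecule of the synaptic cell adhesion family, had 39.3 and 39.7 FPKM in Schwann cells and 6.32 and 4.67 in whole nerve, a log2 fold change of 2.52. Nfasc, neurofascin of the node and paranode, was the gene called lower, at 9.09 and 9.65 FPKM against 10.8 and 13.8, and this call was lost without whole nerve replicate 2. Of 12 neuronal genes tested 7 were lower and 2 higher. Without Schwann cell replicate 2 the number lower was 4, and with each uncrushed library left out in turn, or with the length offset, the number higher was 1. Gap43, a growth cone protein also made by some Schwann cells, had 1.32 and 1.10 FPKM in Schwann cells and 16.9 and 9.29 in whole nerve, and Scn9a, a sodium channel of sensory neurons, had 19.8 and 15.7 against 0.760 and 1.18.

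The list of repair Schwann cell genes, which are known for their rise after injury, held 12 genes called higher, 4 lower and 3 not called, against 29.1% higher and 35.3% lower over all genes. Of those higher, Jun and Atf3 are also immediate-early genes, and Sox2 is also in the non-myelinating list. Gdnf, a neurotrophic factor for motor and sensory neurons, had 3.26 and 1.6 FPKM in Schwann cells and 0.0200 and 0 in whole nerve. That is 242 counts against 1, a ratio of 192 with a 95% exact interval of 34.1 to 7604. Bdnf, another neurotrophin, had 19 counts in Schwann cells and none in whole nerve, at least 2.36-fold higher. Mdk, the growth factor midkine, was lower, with 5.10 and 4.12 FPKM against 27.0 and 36.5.

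Immediate-early genes were the list with the highest median. Of 46 tested, 44 were called higher in Schwann cells, against 29.1% of all genes, none lower, and Ctgf and Klf2 were not called. In all 46 the FPKM of both Schwann cell libraries lay above both whole nerve libraries, as in 46.4% of all genes tested. Their summed level was 10490.0 and 11820.0 FPKM in Schwann cells and 984 and 926 in whole nerve. The median log2 fold change was 3.51.

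Fosb and Fos, for subunits of AP-1, the dimeric transcription factor of Fos and Jun proteins, had the largest differences of the list. Fosb had 240 and 340 FPKM in Schwann cells and 0.0800 and 0.190 in whole nerve, a log2 difference of 10.85 (SE 0.402, edgeR adjusted p = 5.51e-11). Fos had 934 and 962 FPKM against 2.47 and 2.03, a log2 difference of 8.39 (SE 0.205, edgeR adjusted p = 4.22e-12). Junb had 37.2 and 34.6 FPKM against 0.280 and 0.300. All 7 genes of the family were higher, and apart from Jund, at 11.3 and 38.8 FPKM against 4.72 and 5.27, each was at least 5 times as high in either Schwann cell library as in either whole nerve library. Jun itself had 383 and 408 FPKM in Schwann cells and 10.3 and 9.39 in whole nerve, a log2 difference of 5.02 (SE 0.131, edgeR adjusted p = 6.04e-12). Fosl1 and Fosl2 had log2 fold changes of 3.50 and 2.72. Atf3, a stress-induced partner of AP-1, had 416 and 403 FPKM against 3.33 and 5.66.

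Zinc finger and nuclear receptor factors of the list were also higher, apart from Klf2, which was not called. Egr1 had 680 and 957 FPKM in Schwann cells and 10.8 and 21.6 in whole nerve, a log2 difference of 5.38 (SE 0.306, edgeR adjusted p = 2.76e-09). Egr3 had 40.2 and 51.5 FPKM against 1.22 and 1.10. Egr2, or Krox20, is both an immediate-early gene and the master regulator of myelination, and it had 270 and 286 FPKM against 36.2 and 41.2, a log2 fold change of 2.55. Egr2 was thus higher in the purified cells while most myelin protein genes were lower. Nr4a1, Nr4a2 and Nr4a3, orphan nuclear receptors, were higher by 3.22, 2.99 and 3.76 on the log2 scale. Klf6 and Klf4 were higher by 3.22 and 1.78, and Klf2 was at 1.56 and 1.92 FPKM in Schwann cells and 1.03 and 0.550 in whole nerve.

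Of the genes that restrain signalling or RNA, Zfp36 and Socs3 were also among the highest. Zfp36, which directs the decay of cytokine messenger RNAs, reached 1875 and 2067 FPKM in Schwann cells, among the 10 most abundant nuclear genes, from 23.1 and 27.7 in whole nerve. Its log2 fold change was 5.97 (SE 0.146, edgeR adjusted p = 4.22e-12). Socs3, a feedback inhibitor of cytokine receptors, had 153 and 169 FPKM against 0.680 and 0.920, a log2 difference of 7.37 (SE 0.214, edgeR adjusted p = 1.14e-11). The phosphatase genes Dusp1, Dusp5 and Dusp6 were higher by 2.94, 4.14 and 0.87. Rhob, a small GTPase whose transcript is short-lived, was also among the 10 most abundant nuclear genes, with 1780 and 1811 FPKM against 340 and 278. Cyr61 and Ctgf, matrix proteins of the CCN family with shared regulators, parted. Cyr61 had 831 and 918 FPKM against 9.26 and 11.4, whereas Ctgf had 17.03 and 15.3 against 13.6 and 11.1. The remaining 21 called genes had log2 fold changes between 0.56 (Sgk1) and 5.68 (Gadd45g).

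**Figure D3:**
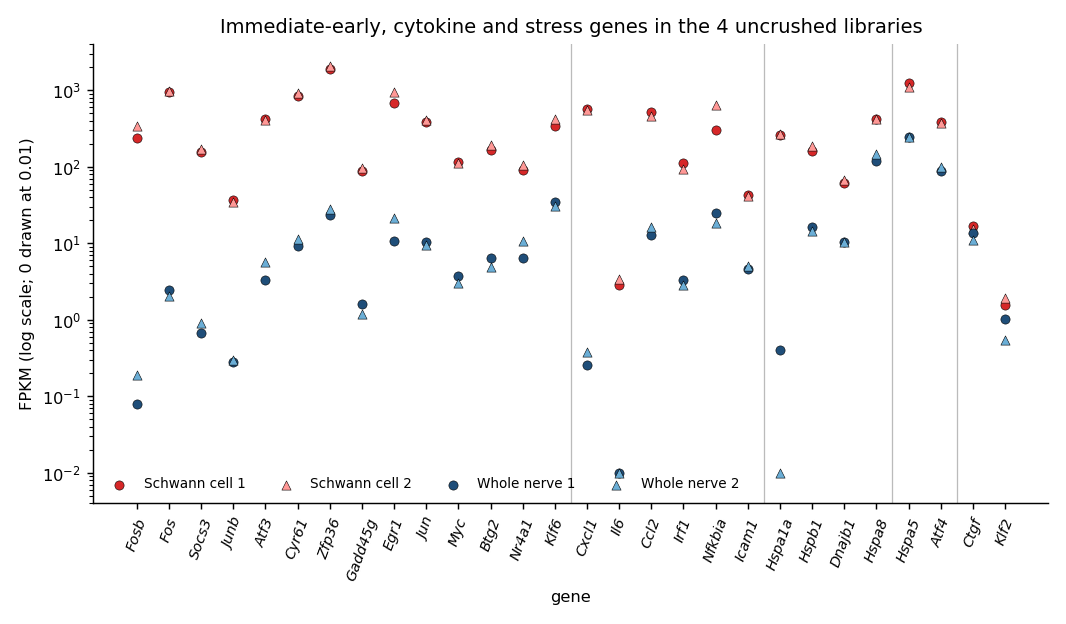
FPKM (vertical, log scale, with 0 drawn at 0.01) of 28 genes in each of the 4 uncrushed libraries, with immediate-early genes at the left, then NF-kappaB and cytokine genes, heat shock genes, Hspa5 and Atf4 of the endoplasmic reticulum stress list, and the immediate-early genes Ctgf and Klf2 that were not called at the right. The red points of both Schwann cell libraries lie above the blue points of whole nerve for every gene shown.

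Of 20 genes of NF-kappaB signalling and cytokines, 13 were called higher, none lower and 7 were not called, with a median log2 fold change of 2.69. Cxcl1, a chemokine for neutrophils, had 569 and 543 FPKM in Schwann cells and 0.260 and 0.380 in whole nerve. That is 11039 counts against 6, a ratio of 1458 with a 95% exact interval of 669 to 3973. Ccl2, a chemokine for monocytes, had 514 and 456 FPKM against 12.7 and 16.2, a log2 difference of 4.78 (SE 0.284, edgeR adjusted p = 4.15e-09). Il6 was low, with 2.83 and 3.42 FPKM in Schwann cells, and had no count in whole nerve, at least 9.10-fold higher. Inhibitors that NF-kappaB itself induces were higher too. Nfkbia had 297 and 643 FPKM against 25.1 and 18.3, and Nfkbiz 28.01 and 32.8 against 0.480 and 0.980. Il1b, Ccl3 and Ccl4, cytokines typical of myeloid cells, were not called, and each was below 4 FPKM in all 4 libraries. Ptgs2, cyclooxygenase 2, was also not called, at 0.570 and 0.590 FPKM against 1.38 and 0.700. Macrophage markers were lower in all 18 cases, as given above.

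Heat shock genes were higher in 10 of 15 cases, lower in 2 and not called in 3, against 29.1% higher and 35.3% lower over all genes. With the length offset 11 were higher and none lower. Hspa1a, the inducible chaperone Hsp70, had 260 and 270 FPKM in Schwann cells and 0.400 and 0 in whole nerve, a log2 difference of 9.83 (SE 0.490, edgeR adjusted p = 8.30e-10). The unnamed record LOC108348108, which RefSeq lists as Hspa1b under the same gene number, followed with 122 and 148 FPKM against 0.0600 and 0.630. The transcripts of this pair are nearly identical, so how RSEM divided fragments between them is uncertain, while both were high in the same libraries. Hspb1, the small heat shock protein Hsp27, had 162 and 185 FPKM against 16.1 and 14.3, a log2 difference of 3.20 (SE 0.284, edgeR adjusted p = 2.28e-07). Constitutive members differed less. Hspa8 was higher by 1.35 and Hsp90ab1 by 0.46, and the mitochondrial chaperone Hspe1 was lower by 0.39, a call lost under DESeq2, with upper quartile normalization, with only the 4 uncrushed libraries, for a 2-fold difference, and without Schwann cell replicate 1 or either whole nerve library, and with an offset for transcript length its value turned to 0.66.

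Of 14 genes of the endoplasmic reticulum and amino acid response 9 were higher and 2 lower, against the same shares of all genes, and 9 and 1 with the length offset. Hspa5, the chaperone BiP, had 1254 and 1103 FPKM in Schwann cells and 245 and 242 in whole nerve, a log2 difference of 1.96 (SE 0.108, edgeR adjusted p = 2.10e-09). Chac1, which degrades glutathione, was the highest, at 4.41, and Asns, asparagine synthetase, the lowest, at −1.15. Oxidative and metal stress genes were higher in 3 and lower in 5 of 13 cases, near the 29.1% and 35.3% of all genes, with Hmox1, haem oxygenase 1, at 15.2 and 16.2 FPKM against 4.19 and 3.07 and Slc7a11, the cystine carrier, at 0.0700 and 0.05 against 1.81 and 2.54. With the length offset 5 were higher and 5 lower, and the median turned from −0.08 to 0.25. Of 15 targets of p53, 5 were higher and 6 lower, also near the shares of all genes. Btg2 and Gadd45a, both also known to respond early to stress, led those higher at 4.63 and 2.93, and Eda2r, a death receptor, was lowest at −5.24.

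Promoter sequences were available for 36 of the 49 immediate-early genes, 17 of the 22 NF-kappaB and cytokine genes and 11 of the 16 heat shock genes, from 250 bases before to 50 bases after the start site in RefSeq's annotation of GRCr8, a later build than the Rnor_6.0 used for the counts. The search was for 6 motifs on both strands, the CArG box of serum response factor, the NF-kappaB consensus site, the heat shock element pair GAANNTTC, the cAMP response element TGACGTCA, the AP-1 site TGANTCA and the TATA box TATAAA. A CArG box lay in 6 of 36 immediate-early promoters (16.7%) and in 1.64% of all 27457 promoters of that length. An NF-kappaB site lay in 11 of 17 promoters of the NF-kappaB and cytokine list (64.7%), against 7.60% of all, and 10 of the 11 genes were called higher. GAANNTTC lay in 8 of 11 heat shock promoters (72.7%), against 8.34% of all, and 6 of the 8 genes were called higher. In the immediate-early promoters TGACGTCA and the NF-kappaB site were as frequent as the CArG box, in 6 of 36 each, against 1.91% and 7.60% of all promoters. TATAAA lay in 10 of 36 (27.8%), against 14.3% of all, and TGANTCA in 1 of 36 (2.78%), against 7.33% of all. Among the 11236 promoters of genes tested the shares were 1.28% for the CArG box, 9.92% for the NF-kappaB site, 5.95% for GAANNTTC, 2.97% for TGACGTCA, 7.74% for TATAAA and 5.14% for TGANTCA. In the 112 promoters of genes called higher by 16-fold or more they were, in the same order, 2.68%, 14.3%, 5.36%, 7.14%, 16.1% and 2.68%. Of all genes tested, 29.1% were called higher. These lists were written from what is known of their regulators, so the shares describe the lists and were not tested. The promoters of most interest are those of Zfp36, the gene with the largest difference among immediate-early genes with a CArG box, and the leading 2 genes with the matching motif in each of the other lists, with the motif in capitals.

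Zfp36 (GRCr8, chr1:92799059-92799358, minus strand, CArG box): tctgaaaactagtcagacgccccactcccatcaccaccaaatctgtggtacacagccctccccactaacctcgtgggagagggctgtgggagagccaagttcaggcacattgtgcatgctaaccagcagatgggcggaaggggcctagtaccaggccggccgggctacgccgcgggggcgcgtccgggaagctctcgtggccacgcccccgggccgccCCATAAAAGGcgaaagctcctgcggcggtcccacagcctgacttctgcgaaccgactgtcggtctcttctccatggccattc
Cxcl1 (GRCr8, chr14:17479272-17479571, minus strand, NF-kappaB sites that overlap): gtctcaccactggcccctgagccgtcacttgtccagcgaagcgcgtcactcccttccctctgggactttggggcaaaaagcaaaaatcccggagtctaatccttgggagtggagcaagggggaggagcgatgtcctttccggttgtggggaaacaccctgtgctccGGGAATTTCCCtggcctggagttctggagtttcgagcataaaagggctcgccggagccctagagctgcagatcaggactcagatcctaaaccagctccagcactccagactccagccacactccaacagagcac
Il6 (GRCr8, chr4:5894526-5894825, minus strand, NF-kappaB site): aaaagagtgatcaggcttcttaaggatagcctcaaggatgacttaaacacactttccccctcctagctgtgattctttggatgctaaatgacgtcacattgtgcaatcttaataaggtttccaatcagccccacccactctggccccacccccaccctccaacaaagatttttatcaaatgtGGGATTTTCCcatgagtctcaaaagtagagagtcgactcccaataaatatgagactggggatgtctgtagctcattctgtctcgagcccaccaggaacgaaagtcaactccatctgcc
Hspb1 (GRCr8, chr12:26432252-26432551, minus strand, GAANNTTC): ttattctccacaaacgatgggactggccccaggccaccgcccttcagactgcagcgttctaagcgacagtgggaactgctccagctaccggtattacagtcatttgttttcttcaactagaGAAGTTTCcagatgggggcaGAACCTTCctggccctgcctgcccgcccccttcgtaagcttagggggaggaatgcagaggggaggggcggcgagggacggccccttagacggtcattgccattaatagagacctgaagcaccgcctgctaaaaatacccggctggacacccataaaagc
Dnajb1 (GRCr8, chr19:41431092-41431391, minus strand, GAANNTTC): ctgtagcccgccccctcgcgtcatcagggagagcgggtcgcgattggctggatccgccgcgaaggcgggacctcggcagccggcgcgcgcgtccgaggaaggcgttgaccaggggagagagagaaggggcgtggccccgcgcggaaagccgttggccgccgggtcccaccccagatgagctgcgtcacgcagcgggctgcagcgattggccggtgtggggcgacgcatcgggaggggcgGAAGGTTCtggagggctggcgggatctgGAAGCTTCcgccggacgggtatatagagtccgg

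The motif began 32 bases before the start site in Zfp36, 84 in Cxcl1 and 68 in Il6. In Hspb1 the motifs began 129 and 109 bases before the start site, and in Dnajb1 the first began 11 bases before it and the other lay after it. Dnajb1, a partner of Hsp70, had 60.7 and 66.9 FPKM in Schwann cells and 10.2 in both whole nerve libraries. A match of letters is a description and does not show that a factor was bound.

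Genes of cell division were higher in 26 of 28 cases and lower in none, with a median log2 fold change of 1.51. Mki67, a marker of proliferating cells, had 39.1 and 37.0 FPKM in Schwann cells and 6.24 and 5.71 in whole nerve, a log2 difference of 2.36 (SE 0.111, edgeR adjusted p = 4.85e-10). Kif11, a motor of the mitotic spindle, had 15.7 and 19.6 FPKM against 3.25 and 3.07. Tyms, thymidylate synthase, was not called and was lowest, at 9.43 and 7.26 FPKM against 6.71 and 4.47. A requirement of at least a 2-fold difference left 15 of the 28.

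Short and housekeeping transcripts were lower as whole families. Of 86 genes for proteins of the cytosolic ribosome 84 were lower and none higher, with a median log2 fold change of −1.08. Of 77 nuclear genes of the respiratory chain 72 were lower and 1 higher, with a median of −1.28, and of 13 genes of the mitochondrial genome 13 were lower, with a median of −2.53. COX1, a subunit of cytochrome oxidase encoded there, had 9519 and 10130.0 FPKM in Schwann cells and 45706 and 41476 in whole nerve. Fth1, the ferritin heavy chain, was lower by 1.83 and S100a6, a calcium-binding protein, by 2.37, and both were among the 10 most abundant nuclear genes of whole nerve other than ribosomal RNA.

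These differences moved with transcript length. In genes with a mean of at least 1 FPKM, the median log2 fold change rose from −1.17 in 374 genes of at most 600 bases to 0.52 in 1168 genes of more than 6000 bases. The share called lower fell from 65.0% to 21.7% over the same range. The order was the same at day 3, from −0.91 to 0.50, and at days 5 and 7 it ran from −0.50 to 0.31 and from −0.70 to 0.35. Ribosomal protein transcripts have a median length of 565 bases. With an offset for length, added after the data were seen, 28 of the 86 ribosomal genes were lower and 14 higher, with a median of −0.05, so their direction as a family rests on how length is treated. Nuclear respiratory genes then had 39 lower and 2 higher, with a median of −0.39, and the mitochondrial genome kept 12 of 13 lower, with a median of −1.84. The offset left immediate-early genes at 45 of 46 higher and cell division genes at 27 of 28. The part that RNA extraction and amplification had in this pattern was not tested.

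**Figure D4:**
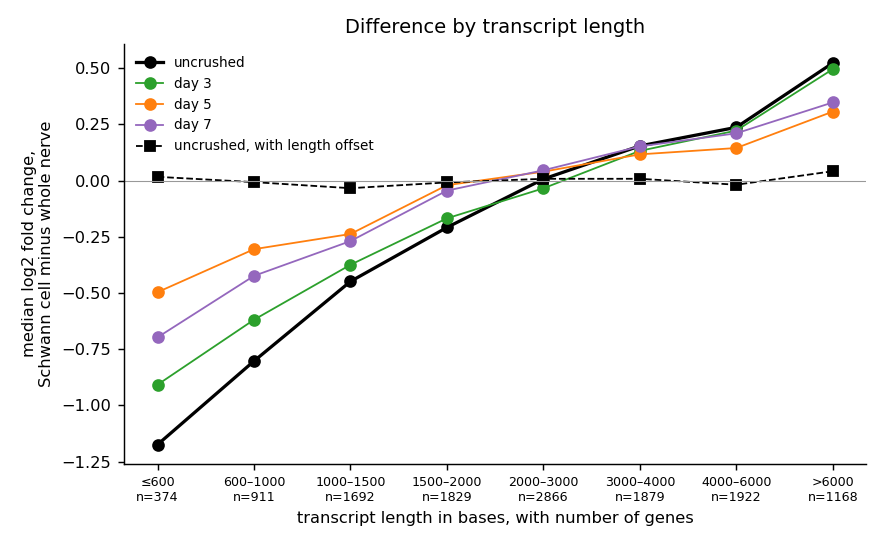
Median log2 fold change between Schwann cells and whole nerve (vertical) in 8 classes of transcript length in bases (horizontal, with the number of genes), before crush and at days 3, 5 and 7, and before crush with an offset for length (dashed). The uncrushed line climbs from −1.17 in the shortest class to 0.52 in the longest, and with the offset every class lies within 0.05 of 0.

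Whether the uncrushed difference differed in size from that after injury was tested for each gene, as the uncrushed difference minus the mean of the differences at days 3, 5 and 7. The test does not say whether a difference was present after crush. This interaction was called for 5500 of 16829 genes (32.7%), with the uncrushed difference the more positive in 3005 (17.9%) and the more negative in 2495 (14.8%). Immediate-early genes were more positive before crush in 36 of 46 cases and more negative in none. Their median difference was 3.51 before crush and 1.75, 2.04 and 1.97 at days 3, 5 and 7, so that the median lay above 0 at every time point and was highest before crush. Fos had a mean of 948 FPKM in uncrushed Schwann cells and between 246 and 316 in crushed ones, against 2.25 in uncrushed whole nerve and between 11.7 and 12.4 after crush. Of 20 NF-kappaB and cytokine genes, 11 were more positive before crush and 1 was more negative. Ccl2 differed by 4.78 on the log2 scale before crush and by −1.16 at day 3, with means in whole nerve of 14.4 FPKM before crush and 564.46 at day 3. Its interaction was 5.21 (SE 0.310, edgeR adjusted p = 2.63e-08).

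Cell division genes were more positive before crush in 24 of 28 cases. Their median difference was 1.51 before crush and −0.12, 0.20 and 0.64 at days 3, 5 and 7. Mki67 stood at a mean of 38.03 FPKM in uncrushed Schwann cells and 5.98 in uncrushed whole nerve, and at 83.3 and 69.9 at day 3.

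Myelin protein genes were more negative before crush in 13 of 16 cases, with medians of −1.31 before crush and 0.62, 0.77 and 0.27 after it. Mbp, myelin basic protein, had a mean of 1660.2 FPKM in uncrushed Schwann cells and 5678 in uncrushed whole nerve. The means were 396 and 263 at day 3, and 716 and 721 at day 7, where the log2 difference was −0.07. Its interaction was −2.44 (SE 0.138, edgeR adjusted p = 1.70e-08). The genes of the mitochondrial genome followed, with 13 of 13 more negative before crush. COX1 had 9824.5 FPKM in uncrushed Schwann cells and 43591 in uncrushed whole nerve, against 18921 and 19825 at day 3. Over the 13 genes the median difference was −2.53 before crush and −0.17, −1.07 and −0.67 at days 3, 5 and 7. Of the 13, 2, 13 and 12 were called lower at those days, so the list was still lower at days 5 and 7.

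The 5 genes with the lowest p in each direction, among those with a mean of 10 FPKM in any of the 8 groups, were as follows. Cp, the ferroxidase ceruloplasmin, had 52.4 and 49.8 FPKM in uncrushed Schwann cells and 23.8 and 27.96 in uncrushed whole nerve, and after crush group means lay between 4.885 and 7.335 in Schwann cells and between 64.1 and 102.65 in whole nerve. Abca9, a lipid transporter, had 23.4 and 26.7 FPKM in uncrushed Schwann cells and at most 0.625 after crush, with 18.05 FPKM or more in whole nerve at every time point. Col11a1, Ifitm3 and Ablim1 showed the same order, with log2 fold changes between −0.60 and −0.33 before crush and between −6.01 and −4.05 after it. The uncrushed value of Ifitm3, −0.47, lost its call without whole nerve replicate 1 and turned to 0.53 with the length offset. In the other direction, Cntf and Pmp2, described above, had means in whole nerve of 215 and 2303 FPKM before crush and 7.285 and 80.7 at day 3. Their differences of −3.15 and −3.82 before crush stood beside 1.497 and −0.05 at day 3. Tspan17, a tetraspanin, and Nes, the intermediate filament nestin, were lower in Schwann cells before crush, by 2.64 and 1.86, and not after it. Nbl1, a secreted antagonist of bone morphogenetic proteins, had 7.72 and 7.06 FPKM in uncrushed Schwann cells and a mean of 92.3 at day 3, with means in whole nerve of 42.0 before crush and 83.1 at day 3.

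Of 18 fibroblast genes 6 were more positive before crush and none more negative, and of 13 pericyte and smooth muscle genes 5 and none. Of 17 endothelial genes 3 were more positive and 1 more negative, near the shares of 17.9% and 14.8% over all genes, with a median interaction of −0.53. Col3a1 had a mean in Schwann cells of 1019 FPKM before crush and 28.1 at day 3, while whole nerve had 2400.5 and 1880.4, an interaction of 3.91 (SE 0.256, edgeR adjusted p = 6.10e-08). Mfap5, a protein of elastic microfibrils, had 105 FPKM in uncrushed Schwann cells and at most 8.46 after crush, with an interaction of 4.29. Apoe, the lipid carrier apolipoprotein E, had 176 and 224 FPKM in uncrushed Schwann cells and 210.28 and 226 in uncrushed whole nerve, with group means of 35.5 and 668 at day 3. Of 18 macrophage genes 2 were more positive before crush, Cd68 and Cd14, and none more negative.

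**Figure D5:**
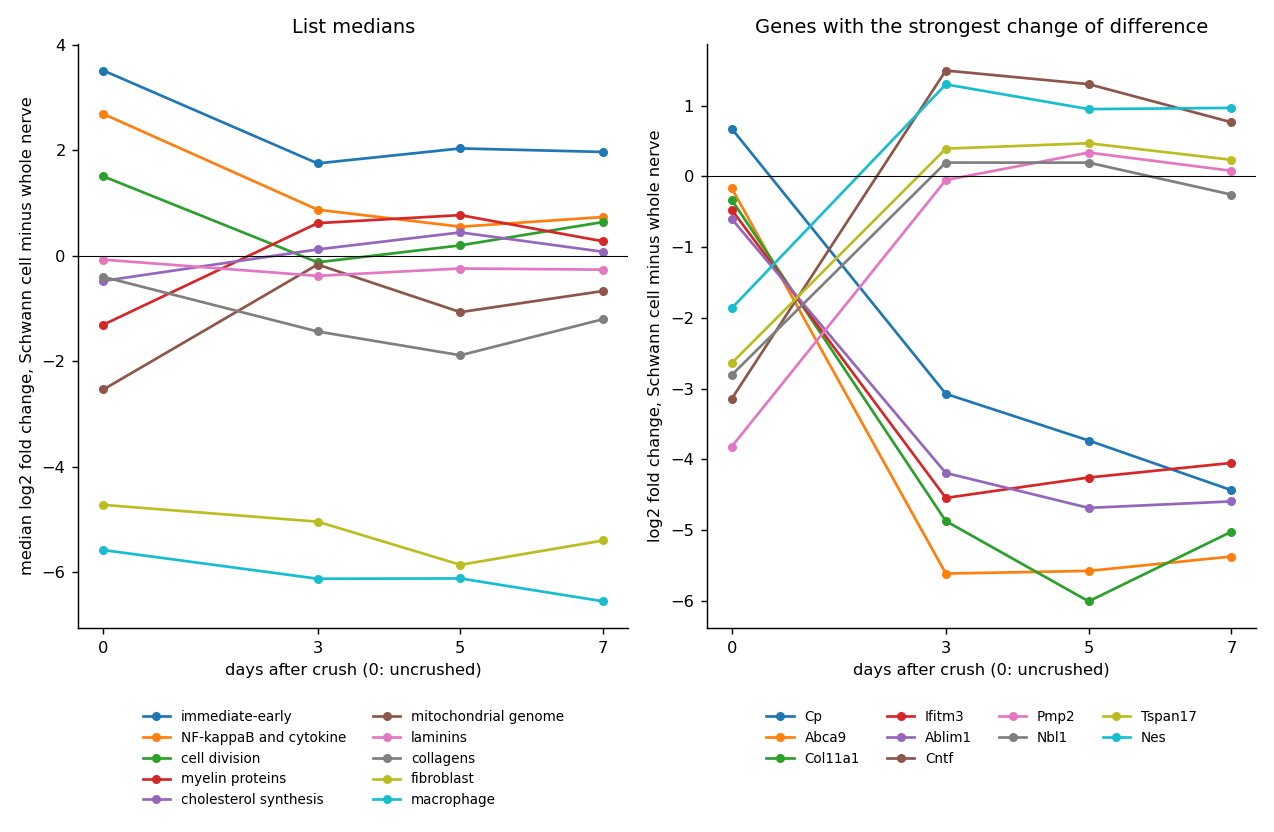
Log2 fold change between Schwann cells and whole nerve (vertical) before crush and at days 3, 5 and 7 (horizontal), as medians of 10 gene lists at the left and for the 10 genes with the lowest interaction p at the right. Immediate-early and cytokine medians were 3.51 and 2.69 before crush and 1.75 and 0.87 at day 3, the myelin median was −1.31 before crush and 0.62 at day 3, and Cp, Abca9, Col11a1, Ifitm3 and Ablim1 lie below −3 after crush.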

How the data were processed

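RNA of 16 libraries was amplified with the Ovation RNA-seq V2 system and sequenced as paired ends, without molecular identifiers. The authors aligned reads with STAR and quantified genes with RSEM on Rnor_6.0, and deposited expected counts and FPKM for 31038 genes in each library. Here the deposited expected counts were rounded and tested with edgeR 4.0.16 in R 4.3.3 (TMM, filterByExpr, quasi-likelihood test, all 16 libraries, no replicate block), with Benjamini-Hochberg adjustment over 16829 genes. FPKM served for levels only. Exact permutation of 2 against 2 libraries could not pass the threshold and was not used. Nothing in the labels says whether replicate pools were independent of each other beyond being separate samples, so p-values measure the spread between these samples. Intervals and floors (3 counts) cover counting error only.

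Tested on simulated data for this comparison, with 16531 genes and 196 planted changes tested, 113 were recovered among 125 calls, 12 of them false. That share of false calls is above the threshold of 0.05. The simulation gave all genes the same spread and changed few of them, whereas 64.4% of genes were called in the data. It therefore does not measure the share of false calls there. Members and lists were chosen with earlier results of these data known. Genes were named as the 10 largest and smallest differences, the extremes of each list, sort targets and known markers, the 10 most abundant in each group, the 5 lowest p in each direction of the interaction, and immediate-early genes. Another 29 genes, among them Ccl2, Col3a1, Lama2 and Scn7a, were named after their values were seen. Alternatives were DESeq2 1.42.0, other normalizations, filters and fits, and each uncrushed library left out. Results for a few genes that the rule would name are not reported here.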

Additional observations from a re-analysis of the deposited data

Results flagged for a closer look

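How far Schwann cells stood from whole nerve before crush was unlike its mean after crush for 5500 genes by edgeR's interaction test. Among the genes named, the interaction on the log2 scale was more positive before crush for Abca9 at 5.36, Ccl2 at 5.21, Col11a1 at 4.97, Cp at 4.42, Mfap5 at 4.29, Col3a1 at 3.91, Ablim1 at 3.89 and Ifitm3 at 3.815. It was more negative for Cntf at −4.335, Pmp2 at −3.94, Tspan17 at −3.005, Nes at −2.94, Nbl1 at −2.85 and Mbp at −2.44.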

How the results depend on the processing

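Counts of called genes over all genes stayed within 1.5 times of those given under every alternative run except a test for at least a 2-fold difference, which called 4782 genes (1891 higher, 2891 lower), and for the interaction 1072 (665 more positive, 407 more negative). Of 68 counts over lists (34 lists, each direction), 24 moved by more than that under the 2-fold test, 16 with at least 10 counts in each library, 11 with the length offset, 7 without whole nerve replicate 2, 6 without Schwann cell replicate 2, and at most 3 under each other alternative. With the replicate block 10725 genes were called, and 5426 for the interaction. The labels tie same-numbered libraries by nothing but the number. The correlation of their deviations was −5e-04 between the uncrushed groups and lay between −0.0552 and 0.0758 over all pairs of groups. With 2 libraries in each group this cannot show whether same-numbered samples shared animals or a day of preparation. Of 136 named genes, 118 kept their call under every alternative in which they were tested, the 2-fold test aside. With at least 10 counts in each library only 99 of the 136 were tested, and a few were untested with only the 4 uncrushed libraries. Genes with few or no counts in a group are therefore covered by fewer alternatives. Direction turned with the length offset for Hspe1 (0.658), Ifitm3 (0.533), Tagln (0.244), Apoe (0.0656) and Ccl4 (0.0198). With each uncrushed library left out in turn, the value ranged over 0 for Abca9 (−0.319 to 0.000464, the higher without whole nerve replicate 2), Ccl4 (−5.46 to 0.0731, without Schwann cell replicate 2), Ctgf (−0.0572, without whole nerve replicate 2, to 0.226), Gal3st1 (−0.103, without Schwann cell replicate 2, to 0.246, and −0.0132 without whole nerve replicate 1), Il1b (−1.05, without Schwann cell replicate 1, to 2.08) and Tyms (−0.0747, without whole nerve replicate 2, to 0.455, and −0.0659 without Schwann cell replicate 1). The cause was not tested. An interaction could not be fitted with only the 4 uncrushed libraries.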
